A study of Mus musculus with 12 samples.

Results

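Microglia are the resident macrophages of the brain and, with border-associated macrophages and infiltrating monocytes, make up its myeloid compartment. Resting microglia are recognized by P2ry12, Tmem119 and Cx3cr1. Microglia that take up debris or respond to injury raise the lipid receptor Trem2, its signalling adaptor Tyrobp, complement C1q and the lysosomal protein Cd68, often while the resting markers decline. Csf1r, the receptor whose signal keeps microglia alive, Aif1 (Iba1) and Itgam (CD11b) mark the lineage in both states. The 10 genes Aif1, Csf1r, Cx3cr1, P2ry12, Tmem119, Trem2, Tyrobp, C1qa, Cd68 and Itgam were followed here. They were chosen by symbol for their known role and not by their values, and all 10 had a row among the 24091 genes measured.

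RNA sequencing covered 12 samples of mouse cerebellar tissue in 4 groups of 3. Tumors were medulloblastomas of mice GB344, GB359 and GB370, labelled Brca2-mut and Trp53-mut, in which a Cre driven by the human GFAP promoter removes exons 3 and 4 of floxed Brca2 in the developing central nervous system while Trp53 is disrupted in every tissue by a neo cassette. Adjacent samples were cerebellum of the same 3 mice, so they carried the same alleles. Control cerebellum came from Brca2-mut, Trp53-WT mice GB361, GB508 and GB512 and from Brca2-WT, Trp53-mut mice GB517, GB519 and GB520, which the study describes as age-matched adults. The study collected tumors when mice reached a humane endpoint, and the ages of the tumor mice are not given in the labels. Because the Trp53 knockout is global, myeloid cells of the tumor mice and of the Brca2-WT, Trp53-mut controls lack Trp53 as well, whereas the Cre is targeted to neural lineages. In whole tissue, fewer cells of a type and less RNA per cell cannot be told apart. Levels are in TPM, a unit that scales reads for transcript length and library total, so that genes can be compared with each other. Read depth is unknown from such values, and the error given is the variation among mice.

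Some libraries stood apart from their labels or groups. The adjacent samples of GB344 and GB359 held the granule progenitor factor Atoh1 at 59.4 and 50.5 TPM, against 5.0 in adjacent GB370, 119 to 319 in tumors and at most 0.21 in controls. Control GB512 held the proliferation gene Mki67 at 5.63 TPM and the chemokine Cxcl10 at 18.7 TPM, against at most 0.343 and 3.11 in the other controls. The choroid plexus gene Ttr reached 3849 to 5039 TPM in the Brca2-WT, Trp53-mut controls and 842 TPM in GB361, against at most 50.6 TPM elsewhere. In the tumors, 5 of 5 listed cerebellar neuron genes, 5 of 5 oligodendrocyte genes and 4 of 5 astrocyte genes were lower than in controls. By the same test, given below, 21.5% of all genes tested were lower. TPM are shares of a total, and the part of this change in tissue makeup in the values below was not tested.

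Promoters were available in the reference for 6 of the 10 genes. They are shown for Cd68 and Trem2, which rose in tumors, and for P2ry12, which did not pass the test and had the lowest estimate. The myeloid factor Spi1 (PU.1) also rose, and its part in the values of these genes was not tested. Each is the 250 bases before the RefSeq start in GRCm38.p6, in the direction of transcription. Capitals mark matches on either strand to GAGGAA, the pattern searched for PU.1, or TGANTCA, the pattern searched for AP-1. N stands for any base, so the AP-1 pattern is a loose one.
Cd68, chr11:69666171-69666420, minus strand: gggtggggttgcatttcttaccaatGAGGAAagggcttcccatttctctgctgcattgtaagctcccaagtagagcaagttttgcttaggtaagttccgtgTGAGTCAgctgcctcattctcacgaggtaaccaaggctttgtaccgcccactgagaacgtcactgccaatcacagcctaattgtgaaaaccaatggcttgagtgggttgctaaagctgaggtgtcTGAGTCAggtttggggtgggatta
Trem2, chr17:48346151-48346400, plus strand: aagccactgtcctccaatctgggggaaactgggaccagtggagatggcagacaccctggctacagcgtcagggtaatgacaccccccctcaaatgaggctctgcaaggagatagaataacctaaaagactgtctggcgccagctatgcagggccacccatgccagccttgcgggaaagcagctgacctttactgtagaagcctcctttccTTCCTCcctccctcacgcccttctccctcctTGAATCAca
P2ry12, chr3:59262986-59263235, minus strand: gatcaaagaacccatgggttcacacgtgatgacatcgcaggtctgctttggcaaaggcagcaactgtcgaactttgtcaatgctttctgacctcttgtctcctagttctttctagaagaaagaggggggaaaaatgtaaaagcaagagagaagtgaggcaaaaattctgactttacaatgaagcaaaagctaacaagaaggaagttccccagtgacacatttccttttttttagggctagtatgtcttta

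The Cd68 window held 1 match to the PU.1 pattern and 2 to the AP-1 pattern, the nearer ending 18 bases before the start. The Trem2 window held 1 match to each, ending 35 and 3 bases before the start. The open base of the AP-1 pattern was G in both Cd68 matches and A in that of Trem2. The P2ry12 window held no match to either of these exact patterns, and neither did that of Cx3cr1. Aif1, which rose in tumors, held 1 PU.1 match. Itgam, which did not pass the test, held 2, and neither gene held an AP-1 match. Of the other factor patterns searched, Cd68 and P2ry12 each held 1 C/EBP match, P2ry12 1 E-box and Cx3cr1 1 RUNX match. PU.1 matches lay in 23.3% of 32851 mouse promoter windows of this length and AP-1 matches in 6.75%. The shares were 9.56% for C/EBP, 6.02% for the E-box and 14% for RUNX. Matches to the PU.1 and AP-1 patterns do not overlap each other in these windows. These 2 patterns were chosen among 6 searched after looking at these promoters, and a match describes letters only.

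Comparing tumors with the 6 control cerebella asks how the myeloid genes stood in the tumor tissue. The activation-associated genes were higher in tumors and the homeostatic ones were not. Cd68, C1qa, Tyrobp, Trem2 and Aif1 rose 2.80 to 5.70 times by group mean TPM, while P2ry12, Tmem119, Cx3cr1, Csf1r and Itgam had ratios of 0.567 to 1.17. A gene was called when limma's moderated test on log2(TPM + 1) gave a Benjamini-Hochberg adjusted p under 0.01 over all tested genes and a log2 fold change of 1 or more in either direction. Here, changes of low genes come out smaller than their TPM ratios.

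Of the 10 genes, 5 were called higher, against 14.4% of the 16241 genes tested. By limma 0 were called lower, against 21.5% of genes tested, although P2ry12 was lower at an unadjusted p under 0.05, the only 1 of the 10 to be so. Such a p in either direction was reached by 6 of the 10, and by 73.5% of all genes tested. The median log2 fold change was 0.72 over the 10 genes and -0.11 over all genes tested. Quantile normalization moved the all-gene median to 0.04, and that of the 10 genes to 0.90. In 4 genes, Aif1, Tyrobp, C1qa and Cd68, every tumor lay above every control, which held for 28.3% of all tested genes. In 0 of 10 did every tumor lie below every control, against 35.7% of all.

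**Figure D1:**
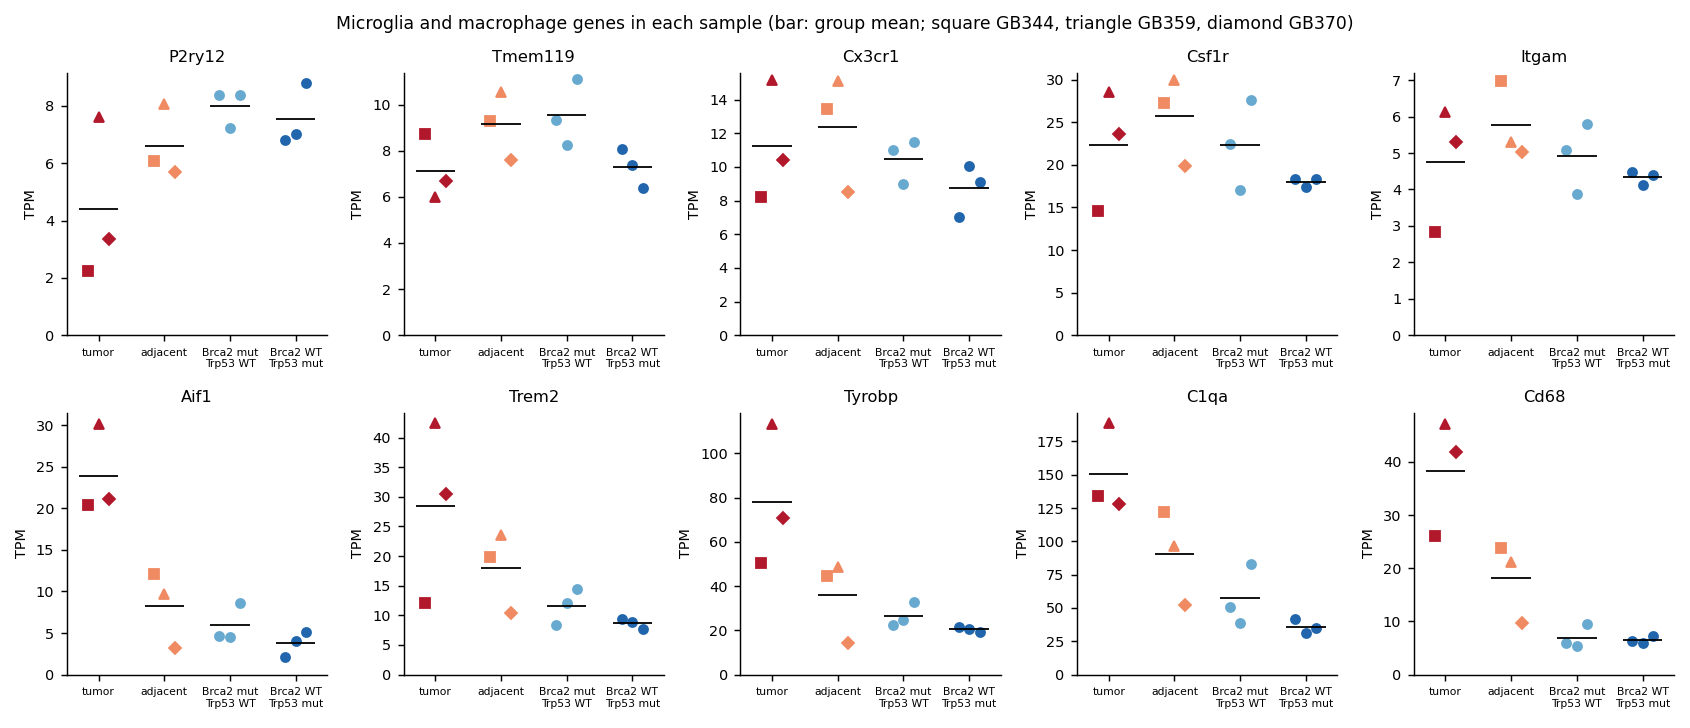
TPM of each of the 10 genes in each sample by group, with the group mean as a bar, and with mice GB344, GB359 and GB370 marked by square, triangle and diamond. The upper row (P2ry12 to Itgam) overlaps between tumors, adjacent samples and the pooled 6 controls, while in the lower row the tumors stand highest on average, with Cd68 at 26.1 to 47.2 TPM against 5.29 to 9.54 TPM in controls.

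Cd68, a glycoprotein of the macrophage lysosome, had the largest change of the 10. In the tumors of GB344, GB359 and GB370 it stood at 26.1, 47.2 and 41.8 TPM, and it was at 5.29 to 9.54 TPM in the 6 controls, with a median of 6.13. The lowest tumor was well above the highest control, GB512. The log2 fold change was 2.33 (SE 0.21, adjusted p = 2.91e-06 by limma).

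Aif1, a calcium-binding actin regulator whose protein Iba1 is the usual stain for microglia, was at 20.4, 30.1 and 21.2 TPM in the tumors. Controls held 2.12 to 8.67 TPM, with a median of 4.61. No tumor overlapped a control, and the log2 fold change was 2.15 (SE 0.29, adjusted p = 7.34e-05 by limma). Aif1 thus differed from the other lineage genes. Csf1r stood at 14.6, 28.5 and 23.7 TPM in tumors against 17.0 to 27.6 TPM in controls, and Itgam at 2.84, 6.11 and 5.30 TPM against 3.86 to 5.81 TPM. For both, tumor GB344 was the lowest of the 9 samples and tumor GB359 the highest. Their log2 fold changes were 0.11 for Csf1r (95% interval -0.36 to 0.58) and -0.0067 for Itgam (-0.45 to 0.43), and neither was called. The sign of Itgam turned under median-of-ratios scaling (0.085) and quantile normalization (0.20).

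C1qa encodes a chain of C1q, the complement starter that tags synapses and debris for uptake by microglia, and it was the most abundant of the 10 in every sample. Its level was 134, 189 and 128 TPM in tumors and 31.3 to 82.9 TPM in controls, with a median of 40.2. The highest control was GB512, with the next at 50.4 TPM, so the 3 tumors were above all controls. The log2 fold change was 1.72 (SE 0.27, adjusted p = 0.000211 by limma).

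Tyrobp, the adaptor (DAP12) through which TREM2 and other receptors activate Syk, was at 50.3, 113 and 70.7 TPM in tumors and 19.0 to 32.9 TPM in controls. All tumors exceeded all controls, again with GB512 the nearest. Its log2 fold change was 1.64 (SE 0.24, adjusted p = 0.000112 by limma). Trem2, the lipid and apolipoprotein receptor that signals through Tyrobp, varied more. It stood at 12.1, 42.5 and 30.5 TPM in the tumors and 7.61 to 14.5 TPM in controls. Tumors GB359 and GB370 were far above the controls, while GB344 lay below GB512. Trem2 was called with a log2 fold change of 1.27 (SE 0.33, adjusted p = 0.00611 by limma), but the call was lost without tumor GB359 (0.90, adjusted p = 0.0334) and without tumor GB370 (1.13, adjusted p = 0.0295), against either control genotype alone, and without control GB361, GB517, GB519 or GB520, where the adjusted p was 0.0125 to 0.0134. Across all alternatives run, the adjusted p of Trem2 ranged from 8.7e-05 to 0.0641. The calls of Cd68, Aif1, C1qa and Tyrobp were kept under every alternative and with every sample left out in turn.

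The 3 homeostatic genes encode the purinergic receptor that steers microglial processes (P2ry12), a transmembrane protein restricted to microglia in the brain (Tmem119) and the receptor for neuronal fractalkine (Cx3cr1). In the tumors of GB344, GB359 and GB370, P2ry12 was at 2.26, 7.62 and 3.34 TPM, against 6.81 to 8.81 TPM in controls. Tumors GB344 and GB370 were below every control, and GB359 lay within their range. The log2 fold change was -0.82 (SE 0.26, 95% interval -1.39 to -0.25, adjusted p = 0.0151 by limma), which missed both thresholds. Without tumor GB359 it was -1.21 with an adjusted p of 0.00011 and was called lower.

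Tmem119 stood at 8.71, 5.97 and 6.68 TPM in tumors and 6.38 to 11.1 TPM in controls. Cx3cr1 stood at 8.22, 15.2 and 10.4 TPM in tumors and 7.02 to 11.5 TPM in controls. Both overlapped, with log2 fold changes of -0.21 (95% interval -0.59 to 0.17) for Tmem119 and 0.18 (-0.24 to 0.61) for Cx3cr1. Among the homeostatic genes the highest upper bound was the 0.61 of Cx3cr1, and among the activation-associated genes the lowest lower bound was the 0.52 of Trem2. The sign of Tmem119 turned under quantile normalization (0.010).

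**Figure D2:**
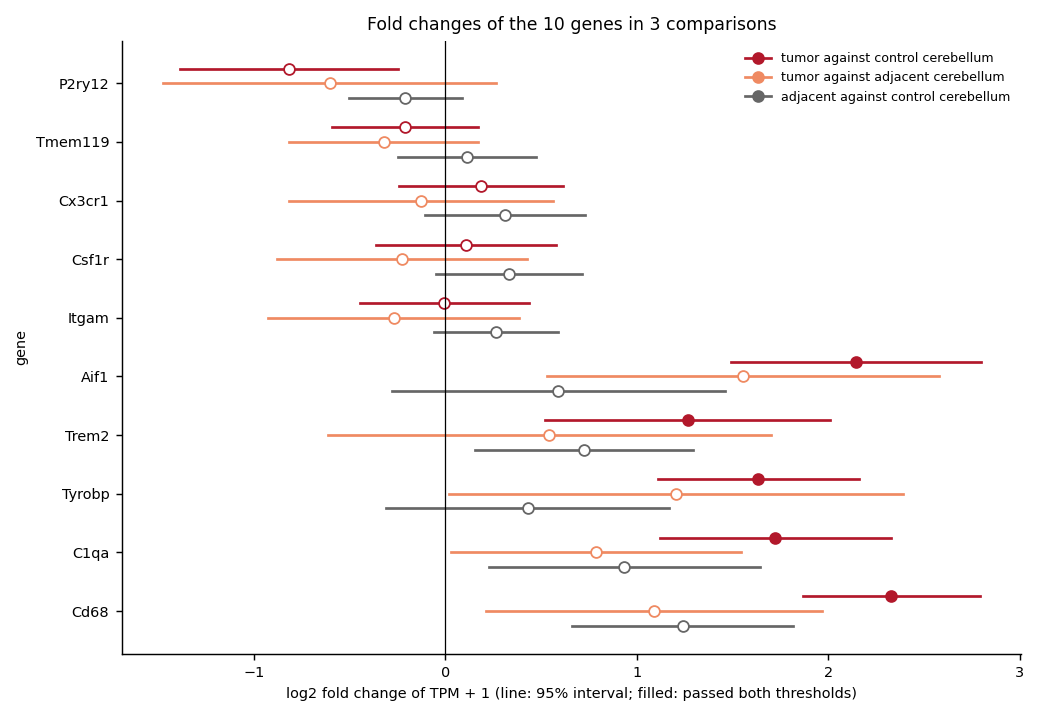
Log2 fold change of TPM + 1 of each gene (point) with its 95% interval (line) in tumor against control, tumor against adjacent, and adjacent against control cerebellum, with filled points for genes that passed both thresholds. Filled points occur for Aif1, Trem2, Tyrobp, C1qa and Cd68 in tumor against control, from 1.27 to 2.33. The 3 comparisons share samples in pairs.

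Ratios between the genes within a sample do not depend on how libraries are scaled. The summed TPM of Trem2, Tyrobp, C1qa and Cd68 over that of P2ry12, Tmem119 and Cx3cr1 was 11.6, 13.6 and 13.3 in tumors GB344, GB359 and GB370. It was 7.30, 5.63 and 3.98 in the adjacent samples of the same mice, and 2.73 to 4.52 in the controls, with GB512 the highest. Each tumor exceeded its own adjacent sample, and adjacent GB370 fell within the control range. The difference of mean log2(TPM + 1), homeostatic minus activation-associated, averaged -2.89 ± 0.27 (SD, n = 3) in tumors, -1.63 ± 0.47 (n = 3) in adjacent and -0.87 ± 0.21 (n = 6) in control cerebellum.

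With Csf1r as the denominator, Cd68 was steady among tumors in spite of their different levels. Its ratio was 1.79, 1.65 and 1.76 in tumors GB344, GB359 and GB370, 0.872, 0.703 and 0.485 in their adjacent samples, and 0.267 to 0.398 in controls, so the 3 kinds of tissue did not overlap. The P2ry12 to Csf1r ratio was 0.154, 0.267 and 0.141 in tumors and 0.303 to 0.481 in controls, also without overlap. Adjacent samples, at 0.223, 0.269 and 0.287, were below every control and overlapped the tumors. Trem2 over Csf1r was 0.830, 1.49 and 1.29 in tumors and at most 0.708 in controls, so that tumor GB344, whose Trem2 level was within the control range, was above it relative to Csf1r. Cx3cr1 over Csf1r was 0.439 to 0.563 in tumors and 0.382 to 0.575 in controls, and Itgam over Csf1r 0.194 to 0.224 and 0.210 to 0.244. Tmem119 over Csf1r was 0.596, 0.209 and 0.282 in tumors, around controls of 0.349 to 0.484.

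**Figure D3:**
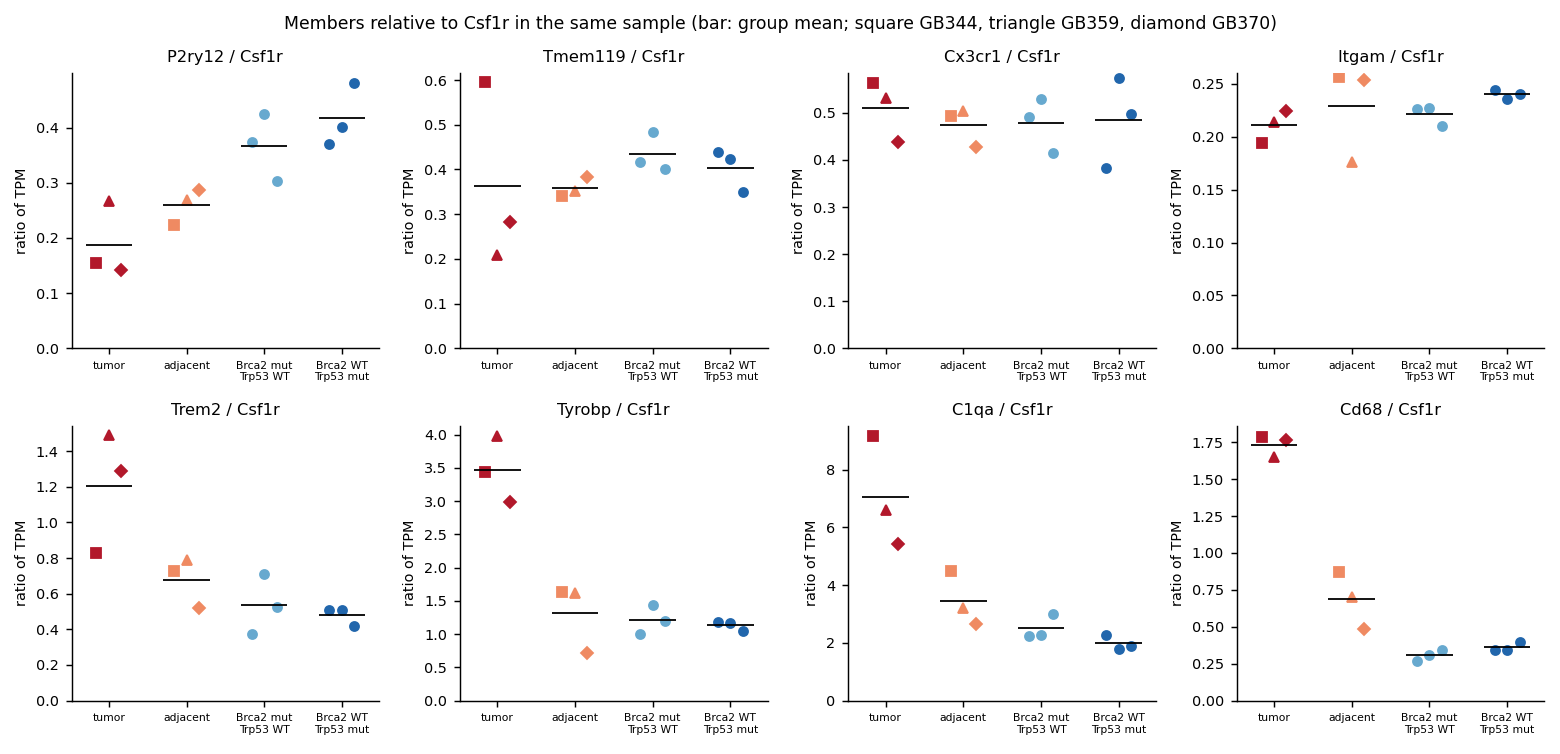
Ratio of TPM of 8 of the genes to that of Csf1r in each sample by group, with the group mean as a bar, and with mice GB344, GB359 and GB370 marked by square, triangle and diamond. Cd68 ratios of 1.65 to 1.79 in tumors stand apart from 0.267 to 0.398 in controls, while the Cx3cr1 ratios of the groups overlap.

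Comparing each tumor with adjacent cerebellum of the same mice asks what is particular to the tumor rather than to the tumor-bearing animal. Aif1, Cd68, Tyrobp and C1qa had all tumors above all adjacent samples, but with 3 samples against 3 none passed both thresholds. By limma 0 of 10 genes were called higher, against 4.76% of the 15845 genes tested, and 0 were called lower, against 18% of genes. An unadjusted p under 0.05 was reached by 4, the same genes that did not overlap, and by 57.1% of all genes tested. Such separation upward was seen in 23.7% of all genes tested, and downward in 38.9% of all genes and 0 of the 10. Quantile normalization and a fit of all 4 groups each called 1 member, Aif1, and the fit with the mouse as a block called 0. Over all genes, 755 were called higher and 2852 lower, which became 1296 and 2476 with median-of-ratios scaling and 1603 and 2192 with quantile normalization, where the all-gene median moved from -0.14 to 0.12.

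Aif1 was at 12.04, 9.68 and 3.17 TPM in adjacent GB344, GB359 and GB370, all below the lowest tumor, with a log2 fold change of 1.56 (SE 0.43, adjusted p = 0.0224 by limma, and 0.00658 to 0.0704 over the alternatives). Cd68 was at 23.8, 21.1 and 9.60 TPM in these samples, which gave 1.09 (SE 0.37, adjusted p = 0.0449, and 0.0126 to 0.127 over the alternatives). The 2 adjacent samples that held Atoh1 also held more of both genes than adjacent GB370. Tyrobp gave 1.20 (adjusted p = 0.084) and C1qa 0.79 (adjusted p = 0.0778). Trem2 overlapped, at 19.8, 23.6 and 10.3 TPM in adjacent samples, and gave 0.54 (95% interval -0.61 to 1.70). P2ry12 at 6.08, 8.06 and 5.69 TPM in adjacent samples was higher than in the tumor of the same mouse in each of the 3 mice, and its log2 fold change was -0.61 (-1.48 to 0.27). Tmem119, Cx3cr1, Csf1r and Itgam had log2 fold changes of -0.32 to -0.13, and all 4 were above 0 under quantile normalization.

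Comparing adjacent cerebellum with the same 6 controls asks whether the myeloid genes were altered outside the tumor. Cd68 was the only 1 of the 10 with every adjacent sample above every control, and in adjacent GB370 by little, at 9.60 against 9.54 TPM in GB512. Such separation was seen in 11.7% of all genes tested. Its log2 fold change was 1.24 (SE 0.26, adjusted p = 0.0188 by limma, and 0.000518 to 0.086 over the alternatives). By limma 0 of 10 were called, against 0.236% of 16091 genes tested, and 3 (Cd68, C1qa and Trem2) had an unadjusted p under 0.05, as did 34.5% of all genes tested. Without adjacent GB370, 2 members were called, Cd68 (1.62) and Trem2 (1.06), and the calls over all genes went from 38 to 586. The 2 remaining adjacent samples are those with Atoh1 above 50 TPM, and the part of tumor tissue in these values was not tested. In adjacent GB370, Aif1 at 3.17 TPM, Tyrobp at 14.3 TPM and C1qa at 52.5 TPM were within or below the control range. P2ry12, Tmem119 and Cx3cr1 had log2 fold changes of -0.21, 0.11 and 0.31, and none was called.

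Between the control genotypes, Brca2-mut, Trp53-WT against Brca2-WT, Trp53-mut, limma called 0 of the 10 genes, against 0.0578% of 15575 genes tested, and 3 had an unadjusted p under 0.05 (Tmem119, Tyrobp and C1qa), as did 20.1% of all genes tested. Tmem119 and Tyrobp were higher with no overlap, as were 6.7% of all genes. The count was 0 under every alternative run. All 10 log2 fold changes were above 0, from 0.05 for Cd68 to 0.59 for C1qa (adjusted p = 0.249), and the median over all genes was -0.07. GB512 was the highest control for Tmem119, Cx3cr1, Csf1r, Itgam, Aif1, Trem2, Tyrobp, C1qa and Cd68. Without GB512, the C1qa difference was 0.29 and that of Cd68 turned to -0.18. The choroid plexus signal also differed between these groups, and its part was not tested.

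The other genes of the pathways were taken from lists of known roles, written with earlier results of these data known. Among the other homeostatic microglia genes, 3 of 14 tested were called higher in tumors than in controls and 2 lower, with a median log2 fold change of 0.22. Over all genes 14.4% were called higher and 21.5% lower, so this list's counts were near the background. These shares also stand beside the counts against controls of the lists that follow. Against adjacent samples the shares over all genes were 4.76% higher and 18% lower. Against adjacent samples 0 of 14 were called higher and 2 lower, Mertk (-2.11) and Rgs10 (-1.48). Fcrls rose from 2.0 to 4.84 TPM in controls to 11.4, 25.7 and 32.4 TPM in the respective tumors (2.41). Sall1, a nuclear factor of microglial identity that other brain cells also use, rose by 1.20, and the TGF-beta receptor Tgfbr1 by 1.55. Rgs10 fell by 1.69, from 29.9 to 42.9 TPM in controls to 8.94 to 12.2 TPM in tumors. Mertk, an uptake receptor also made by astrocytes, fell by 1.71, beside the decline of the astrocyte genes Gja1 (-3.04) and Aqp4 (-2.88). The part of astrocytes in the Mertk value was not tested.

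The other activation-associated genes gave 10 of 20 called higher and 0 lower, with a median of 1.20 and with 18 of 20 at an unadjusted p under 0.05, which 73.5% of all genes tested reached. The largest were Gpnmb (3.17), the cystatin Cst7 (3.13), Cd52 (2.89) and the integrin Itgax (2.54). Cst7 was at 3.33, 43.5 and 17.6 TPM in the tumors of GB344, GB359 and GB370 and 0.398 to 1.38 TPM in controls, so tumor GB344 was much the lowest of the tumors, as it was for Trem2. Against adjacent samples 4 of 20 were called higher, beside 4.76% of all genes tested: Cd63 (1.89), Fabp5 (1.81), Itgax (1.79) and Cd9 (1.42). Cd63, Cd9 and Fabp5 are made by many cell types and stood at 292 TPM or more in every tumor. Apoe, the TREM2 ligand that astrocytes make in quantity, was at 1023 to 1978 TPM in tumors and 2242 to 2724 TPM in controls (-0.95, not called).

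The complement list moved with C1qa. Of 7 tested, 5 were called higher in tumors than in controls and 0 lower, with a median of 1.55. The partner chains C1qb (1.90) and C1qc (1.92) rose, as did C4b (1.96), the C3a receptor C3ar1 (1.40) and the integrin chain Itgb2 (1.55), which pairs with Itgam. C1qb stood at 90.3, 168 and 106 TPM in tumors and 22.7 to 60.6 TPM in controls. C3 itself, at 3.16 to 5.39 TPM in tumors and 2.98 to 6.32 TPM in controls, did not pass the test (0.16). Against adjacent samples 0 of 7 were called by limma, with 1 at an unadjusted p under 0.05, which 57.1% of all genes tested reached.

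Of 5 myeloid transcription factors tested, 3 were called higher, among them Irf8 (2.09) and Spi1 (1.54), and 0 lower. Spi1, the PU.1 gene, was at 10.6, 9.38 and 7.62 TPM in tumors and 1.74 to 4.11 TPM in controls. Among signalling partners of TREM2, TYROBP and Fc receptors, 5 of 11 were called higher and 0 lower, led by the Fc receptor gamma chain Fcer1g (2.36), the phosphatase Ptpn6 (1.55), the inhibitory receptor Fcgr2b (1.24) and the adaptor Hcst (1.06). Fcer1g was at 42.4 to 48.9 TPM in all tumors and 6.52 to 10.8 TPM in controls, and it also rose against adjacent samples (1.67). Against adjacent samples it was the only 1 of 11 called higher, and 1 was called lower, the adaptor Card9 (-1.16). Of 10 other pan-myeloid genes, 6 were called higher, led by the oxidase subunits Cybb (2.04) and Cyba (1.62), and 1 lower, Coro1a (-1.16), which neurons and lymphocytes also make.

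**Figure D4:**
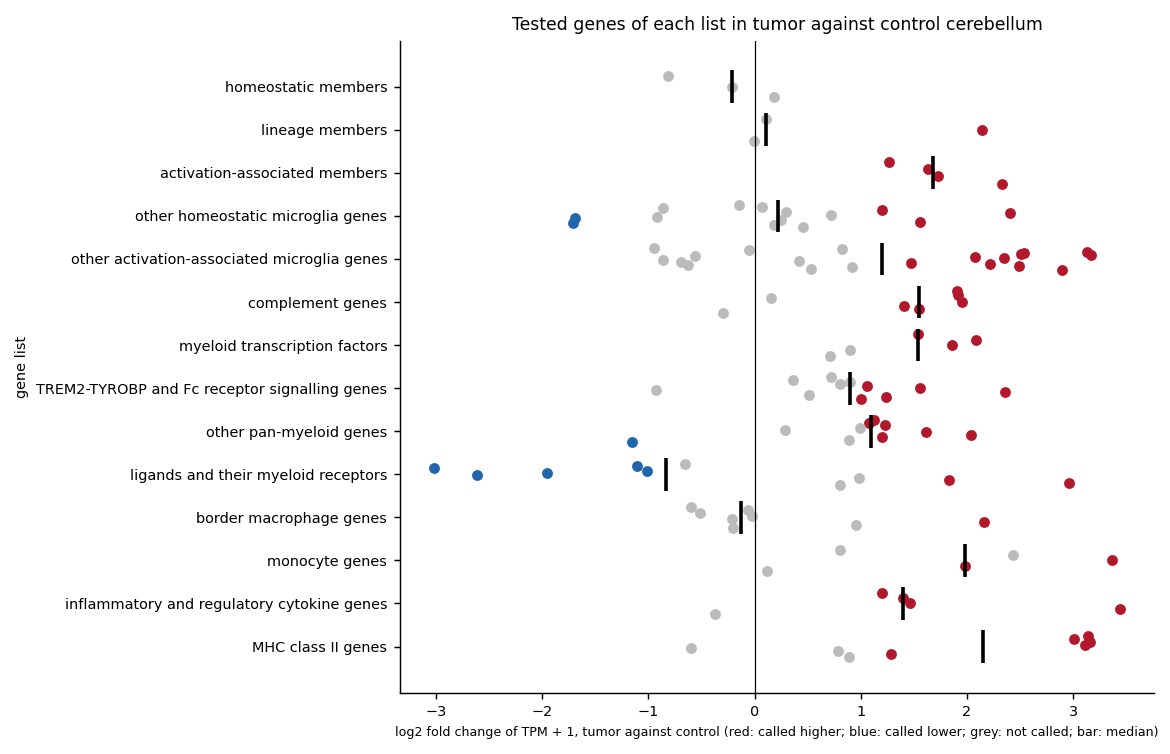
Log2 fold change of TPM + 1 in tumor against control cerebellum for every tested gene of 14 lists, with red and blue for genes called higher and lower, grey for those not called, and a bar at the list median. The medians run from -0.84 for the ligands and receptors to 2.15 for the MHC class II genes, beside -0.11 over all genes tested.

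The signals that these receptors read changed in both directions. Of 10 ligands and partners tested, 5 were called lower in tumors than in controls and 2 higher. Cx3cl1, the neuronal fractalkine that binds Cx3cr1, was at 4.71, 5.06 and 5.35 TPM in tumors and 42.9 to 53.0 TPM in controls. Tumors and controls were far apart, and the log2 fold change was -3.02 (adjusted p = 6.9e-09 by limma). The receptor gene Cx3cr1, as given above, was not called.

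Of the Csf1r ligands, Il34, made mainly by neurons, was at 3.20, 3.95 and 5.02 TPM in tumors against 8.33 to 10.9 TPM in controls (-1.10, called lower). Csf1 was at 11.9, 10.1 and 6.98 TPM against 13.3 to 16.8 TPM. Every tumor was below every control, and its log2 fold change of -0.66 (adjusted p = 0.00246) missed the fold threshold. The restraining signals Cd200 (-1.01) and Cd47 (-1.95) fell, and so did the CD47 receptor Sirpa (-2.61), which neurons make as well as macrophages. Cd200r1 was at or below 1.01 TPM throughout and was not tested.

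The chemoattractant Ccl2 was at 14.7, 8.83 and 7.59 TPM in tumors and 0 to 2.17 TPM in controls (2.96), and Tgfb2 rose by 1.84. The CCL2 receptor gene Ccr2, a monocyte marker, was at 4.75, 2.63 and 2.40 TPM in tumors and 1.12 to 1.70 TPM in controls (0.81, not called). Tgfb1, at 11.9 to 14.6 TPM in tumors, gave 0.99 and also missed the fold threshold. Against adjacent samples Cx3cl1 (-2.72), Sirpa (-2.42) and Cd47 (-1.91) were called lower and Tgfb2 (1.45) higher. Adjacent and control cerebellum gave 0 calls in this list by limma, against 0.236% of all genes tested. An unadjusted p under 0.05 was reached by 5 of 10, and by 34.5% of all genes tested.

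**Figure D5:**
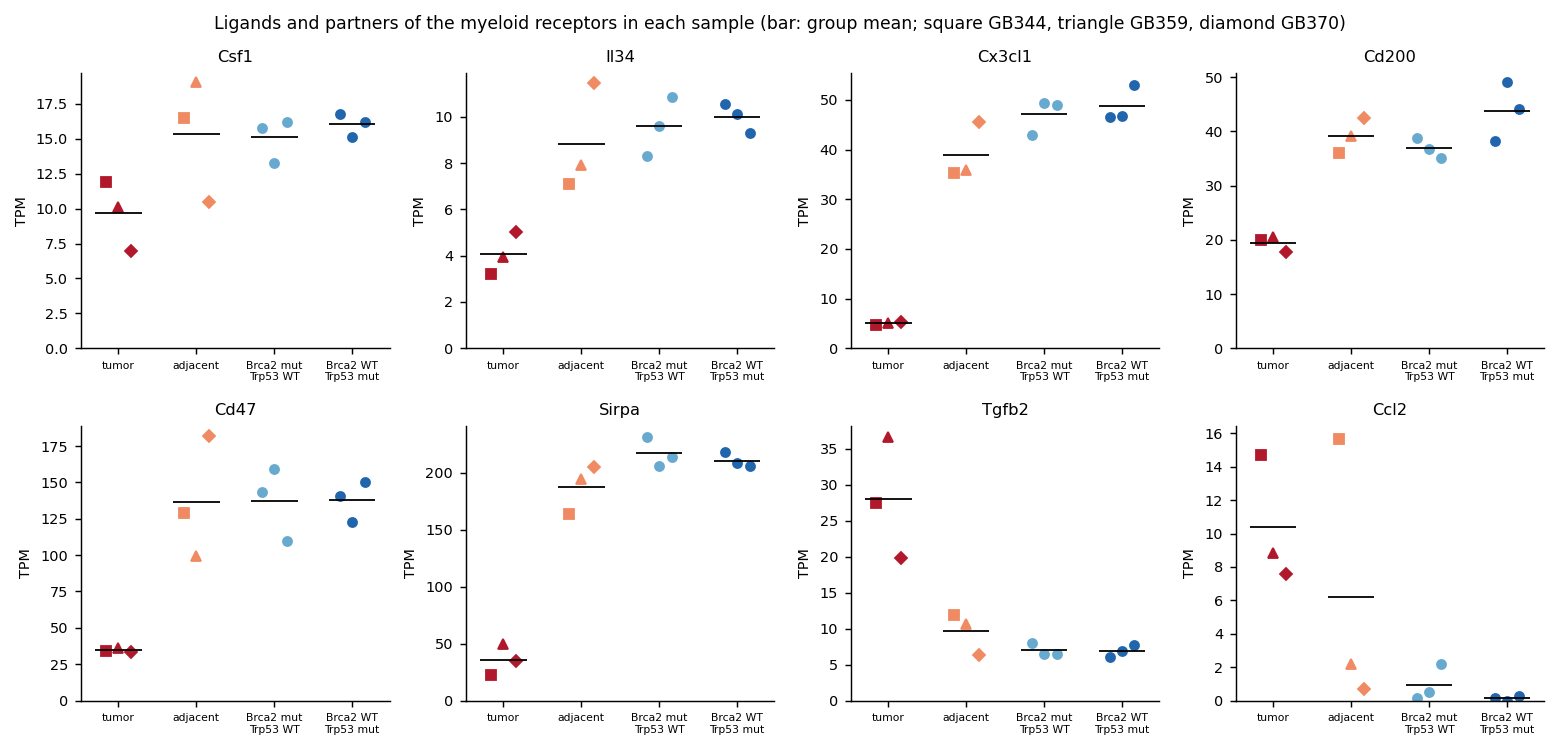
TPM of 8 ligands and partners of the myeloid receptors in each sample by group, with the group mean as a bar, and with mice GB344, GB359 and GB370 marked by square, triangle and diamond. Cx3cl1 at 4.71 to 5.35 TPM in tumors stands far below 42.9 to 53.0 TPM in controls, and Ccl2 is at 7.59 TPM or more in tumors.

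Genes of other myeloid cells were measured beside these. Of 8 border macrophage genes tested, 1 was called higher in tumors, Ms4a7 (2.16), and 0 lower, with a median of -0.13. That is near the 14.4% called higher over all genes. Ms4a7, at most 0.920 TPM in controls, entered the test only through the tumors, so this count is partly set by the filter. The summed TPM of the border macrophage list was 27.1 to 28.3 in tumors, 22.2 to 25.2 in adjacent and 15.9 to 20.7 in control cerebellum. In tumors most of it was Stab1, at 11.2 to 13.3 TPM (0.96, not called), and Ms4a7, while Lyve1 was at 0.0752 to 0.345 TPM in tumors and 0.514 to 1.16 TPM in controls. The defining genes Mrc1, Cd163, Lyve1, Pf4 and Folr2 were each at or below 1.73 TPM in tumors. Of 5 monocyte genes tested, 2 were called higher, Lyz2 (3.37), which microglia and macrophages also raise, and Tgfbi (1.98), and both were also called against adjacent samples. The summed TPM of the monocyte list was 131 to 233 in tumors, 37.1 to 67.4 in adjacent and 21.6 to 31.5 in control cerebellum, and in tumors most of it was Lyz2. The defining genes Ly6c2, Plac8 and Ccr2 were highest in tumor GB344, with Ly6c2 at 12.9, 4.90 and 0.707 TPM and Plac8 at 38.9, 2.17 and 1.66 TPM in the 3 tumors.

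MHC class II genes, which present antigen, were 5 of 8 called higher than in controls and 4 of 8 against adjacent samples, with 0 lower. Ciita, the transactivator of class II genes, was not called, at 1.47 to 1.86 TPM in tumors, below every adjacent sample (2.07 to 2.71 TPM) and every control (2.57 to 3.60 TPM), with a log2 fold change of -0.60 against controls. The invariant chain Cd74 was at 201, 111 and 37.0 TPM in the tumors of GB344, GB359 and GB370, at 6.76 to 17.5 TPM in adjacent samples and at 6.53 to 13.4 TPM in controls, a log2 fold change of 3.14. H2-Ab1 (3.16), H2-Eb1 (3.11) and H2-Aa (3.01) followed the same order of tumors. That order differs from the one of Trem2, Csf1r and P2ry12, for which tumor GB344 was the lowest of the 3. Relative to Csf1r, Cd74 was 13.7, 3.89 and 1.56 in the tumors and 0.319 to 0.732 in controls. The part of monocytes or other antigen-presenting cells in this was not tested.

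Of 5 inflammatory and regulatory cytokine genes tested, 4 were called higher than in controls and 0 lower, beside 14.4% higher over all genes. The 4 were Cxcl10 (3.44), Ccl4 (1.46), Ccl3 (1.40) and Il1b (1.20). Il1b, at most 0.816 TPM in controls, and Ccl3, at most 0.939 TPM, entered the test only through the tumors. Ccl4 passed 1 TPM in no control other than GB519 (1.18 TPM). The count is thus partly set by the filter. Arg1 (-0.37) was not called. Tnf, Il6, Nos2 and Il10 were too low to be tested. Tnf was at 0.546 to 0.744 TPM in tumors and at most 0.0936 TPM in controls, and Il6 at 0.286 to 0.416 and at most 0.0747 TPM. Nos2 was at 0.909 to 1.52 TPM in tumors and at most 0.544 TPM in controls. For these low genes every tumor lay above every control, but not for Il10, at most 0.113 TPM in tumors. Against adjacent samples 0 of the 5 cytokine genes tested were called by limma. An unadjusted p under 0.05 was reached there by 3 of 5, and by 57.1% of all genes tested. In adjacent GB344, GB359 and GB370, Ccl3 was at 5.55, 1.44 and 0.425 TPM, against 2.34, 4.32 and 2.06 TPM in the tumors. Il6 was at 1.78, 0.160 and 0 TPM in these adjacent samples. For lymphocytes and granulocytes, 1 of 5 genes tested was called higher in tumors than in controls, Cd3d (1.99). Its partner Cd3e was at 0.187 to 0.533 TPM in tumors and at most 0.165 TPM in controls. Ly6g and Ncr1 were at or below 0.098 TPM in tumors. The summed TPM of this list was 29.8 to 52.8 in tumors and 9.43 to 15.2 in controls, and in tumors most of it was Cd3d. The 3 red blood cell genes measured were all lower in tumors, led by Hba-a2 (-2.54).

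Without control GB512 the counts called higher against controls became 11 for the other activation-associated genes, 7 for the other pan-myeloid genes and 3 for the ligands and receptors, with the counts of the other homeostatic, complement, transcription factor, signalling, border macrophage, monocyte, cytokine and MHC class II lists as given.

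The genes whose pattern was most like that of the members were described by Pearson correlation of log2(TPM + 1) over the 12 samples, among 16488 genes. For the mean of P2ry12, Tmem119 and Cx3cr1, the most similar gene was Vsir (r = 0.93), an immune checkpoint gene of microglia and other myeloid cells, followed by Fam181a (0.86), Bco2 (0.85), Grm5 (0.85), Map1lc3b (0.84), 2900052N01Rik (0.84), 1700047A11Rik (0.83) and Sox2 (0.83). For the mean of the activation-associated members, the 8 were Zfhx3 (0.99), Cdkn2c (0.99), Kif11 (0.99), Laptm5 (0.98), Itgb2 (0.98), C1qc (0.98), Myc (0.98) and Ckap2 (0.98). Of these, Laptm5, Itgb2 and C1qc are myeloid genes, while Kif11 and Ckap2 serve mitosis. The 12 samples share tissue, mouse and group, so the points are not independent. With the activation-associated mean, the members themselves ranged from Cd68 (0.98) and Aif1 (0.94) to Tmem119 (-0.12) and P2ry12 (-0.39). Cd68 is part of that mean, so its value is raised by construction. The homeostatic gene Cx3cr1 had 0.63 with it, above Csf1r (0.57) and Itgam (0.38). With the homeostatic mean, of which it is a part, Tmem119 had 0.49.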

How the data were processed

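Total RNA of flash-frozen tissue was extracted and poly(A) RNA was sequenced. Per the labels, the authors quantified mm10 transcripts with Salmon 0.8.1. The table deposited by the authors gives TPM of 24091 genes for 12 samples, each column summing to 999793 to 999876, and 0 sample columns were left unused. Read depth is unknown from TPM, so no counting interval or detection floor is given. TPM were transformed to log2(TPM + 1). For each comparison, genes that reached 1 TPM in 3 or more of its samples entered a linear model in limma 3.58.1 (R 4.3.3), moderated by eBayes with trend, with only the groups compared in each fit and Benjamini-Hochberg adjustment over all tested genes. A gene under 1 TPM in all controls could enter only through the group compared with them, so a lower call was closed to it. Itgax and Ccl2 passed 1 TPM in no control other than GB512. Calls needed both an adjusted p under 0.01 and a change of 1 or more on the log2 scale, and intervals are 95%. The steps were tested on simulated data. Tables and plots were made in Python 3.11.15 (pandas 2.3.3, numpy 2.4.6, matplotlib 3.10.9).

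Samples were grouped by the labelled tissue and genotype. Tumor and adjacent samples were paired by mouse number. Deviations from the group mean of same-numbered samples correlated over 15845 genes with r = 0.25 for GB344, 0.18 for GB359 and 0.15 for GB370, and at most 0.02 for other pairings, and a fit with the mouse as a block was an alternative. Nothing says that libraries were replicated within a mouse, so p-values measure the spread between these mice. Promoters and gene positions came from RefSeq on GRCm38.p6, in which all 10 genes matched by gene identifier.

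The members were given by symbol. Their division into homeostatic, lineage and activation-associated genes, the other lists and the alternatives were chosen with earlier results of these data known. Named genes were the 10 members, every gene of the ligand list, up to 4 called genes of largest change per list and comparison (where none was called, up to 2 of the highest mean TPM), and the 8 genes most correlated with each of the means described. Some others were named after their values were seen: Sall1, C3, C3ar1, Ciita, Cd3e, Ly6g, Ncr1, Ly6c2, Plac8, Tnf, Il6, Nos2, Il10 and the border macrophage genes other than Ms4a7. Of 174 listed genes, 2 had no row, and some are not reported here by name. Alternatives were a pseudocount of 0.1, no filter, a filter at 5 TPM, scaling by median of ratios, quantile normalization, no trend in eBayes, a fit over all 4 groups, an adjusted p under 0.05 with no fold minimum, 1 control genotype, the mouse block, and each sample left out with the tested genes kept. The list counts without GB512 were added after seeing the data.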

Additional observations from a re-analysis of the deposited data

Results flagged for a closer look

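Among 70 genes examined in the 6 control cerebella, 12 had 1 sample far from the other 5, with a gap to the nearest sample that took more of the whole range than the critical value of 0.625 allows. Chance alone gives such a gap in about 1 in 20 groups. For 11 of the 12 genes the sample was GB512, always as the highest. Among the members this was C1qa, at 82.9 TPM in GB512 and 50.4 TPM in the next control, with a gap of 0.631 of the range. The gaps were 0.721 for C1qb, 0.722 for C1qc, 0.861 for C4b, 0.752 for Itgb2, 0.719 for Irf8, 0.758 for Cd52, 0.924 for Itgax, 0.773 for Ccl2, 0.857 for Cxcl10 and 0.839 for Il1b. The remaining gene was Cbr2, a border macrophage gene, at 3.56 TPM in GB361 with a gap of 0.79.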

How the results depend on the processing

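In tumor against control cerebellum, the number of members called was 4 to 6 under all alternatives, and 4 to 5 with each sample left out. The 6 came at an adjusted p under 0.05 with no fold minimum, where 11573 of the 16241 genes tested were called. With each sample left out, the calls over all genes were 5641 to 5913. The difference between tumors and controls in the homeostatic minus activation-associated mean was -2.02, and -2.17 to -1.94 with a sample left out. Trem2 lost its call with no filter (adjusted p = 0.0104), with Brca2-WT, Trp53-mut (0.0191) or Brca2-mut, Trp53-WT (0.0641) alone as control, and without tumor GB359 or GB370 or control GB361, GB517, GB519 or GB520, its log2 fold change being 0.90 to 1.76 with a sample left out. P2ry12 was called without tumor GB359, with a range of -1.21 to -0.51. Signs of values near 0 turned for Tmem119 under quantile normalization (0.010), Csf1r with Brca2-mut, Trp53-WT alone as control (-0.029) and Itgam with median-of-ratios scaling (0.085), quantile normalization (0.20) and Brca2-WT, Trp53-mut alone as control (0.062). With a sample left out, Cx3cr1 ranged from -0.035 to 0.37, Csf1r from -0.091 to 0.37 and Itgam from -0.18 to 0.26. In tumor against adjacent cerebellum, members called went from 0 to 1 (Aif1) with quantile normalization or all 4 groups in 1 fit and to 2 (Aif1 and Cd68) at an adjusted p under 0.05 with no fold minimum. Of the 15845 genes tested, quantile normalization called 1603 higher and 2192 lower, and the fit of all 4 groups 1278 and 3111. The rule with no fold minimum called 7980 of them. Under quantile normalization the log2 fold changes were 0.053 for Tmem119, 0.19 for Cx3cr1, 0.024 for Csf1r and 0.11 for Itgam, and median-of-ratios scaling gave 0.042 for Cx3cr1. With a sample left out, Cx3cr1 ranged from -0.35 to 0.060 and Csf1r from -0.42 to 0.037. The fit with the replicate block called 0 members and 701 genes higher and 2841 lower, and it changed no call of a member. In adjacent against control cerebellum, members called went from 0 to 1 at an adjusted p under 0.05 with no fold minimum (Cd68), and ranged from 0 to 2 with a sample left out, 2 without adjacent GB370. Tmem119 turned to -0.041 under quantile normalization and -0.061 with Brca2-mut, Trp53-WT alone as control. Over all genes this comparison called 38, and 0 to 586 with a sample left out, 4 with no filter, 58 with median-of-ratios scaling, 59 with quantile normalization, 10 without a trend, 4 with Brca2-mut, Trp53-WT alone as control, and 2524 at an adjusted p under 0.05 with no fold minimum. Between the control genotypes, all genes called were 9, and 3 to 71 under the alternatives, and Cd68 ranged from -0.18 to 0.20 with a sample left out. At an adjusted p under 0.05 with no fold minimum, all genes called were 11573 in tumor against control and 7980 in tumor against adjacent cerebellum. Under the main thresholds, tumor against adjacent cerebellum called 755 genes higher and 2852 lower, and 2377 in all without adjacent GB359. The cause of these changes was not tested, and no other direction of a member turned. Groups of 3 and unknown depth limit what small differences can show.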
